A study of Drosophila melanogaster with 2 samples.

Results

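The Sox genes of Drosophila melanogaster encode transcription factors with a single HMG box, a DNA-binding domain that inserts into the minor groove and bends the DNA. They are sorted into lettered groups by sequence. The group B genes SoxN and D are known for specifying the neuroectoderm of the embryo and for acting in its neural stem cells, and Sox14 is known in the mushroom body (MB) as an ecdysone-induced factor that is needed when gamma neurons prune their axons at metamorphosis. The 8 Sox genes of the RefSeq gene table were examined here for open chromatin, measured by ATAC-seq in nuclei of adult MB neurons. In ATAC-seq the Tn5 transposase cuts accessible DNA, so that pileups of aligned fragments, called as peaks, mark open chromatin. It gives no measure of transcription. The genes were chosen by family name, and the family itself was selected on a measured value of these files, the fold enrichment of a peak at Sox21b. Its peak values are therefore given as a description, without tests. Of 13922 protein-coding genes on the chromosome arms, 8 are Sox genes, and of 14656 regions with a peak in both replicates, 22 lay in their windows, a window being the gene span extended by 5 kb on both sides.

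The data comprised 1 condition, naive control flies, in 2 biological replicates, each from a pool that the labels give as 50 to 60 flies. The flies carried R14H06-Gal4, a driver of MB neurons, with UAS-unc84::2xGFP, a tagged protein of the nuclear envelope, on a w* background. They also carried tubGal80(ts), a temperature-sensitive repressor of Gal4, and P{VALIUM20-mCherry.RNAi}attP2, a hairpin against a gene that flies lack. MB nuclei were taken from head homogenates of pooled animals with anti-GFP beads, which capture nuclei of cells in which this driver was active. The purity of the captured nuclei was not measured here. Replicate 1 had 17942 peaks and replicate 2 had 15248. The study's methods list unequal read totals for the libraries. The -log10 q of a shared region, which grows with depth, was a median of 2.25 times as high in replicate 1 as in replicate 2 at the Sox genes and 2.30 times over all regions. Reads behind a single peak are not listed, and no interval on its value was computed. Every value of a peak below is its fold enrichment, the ratio of the signal at the summit to the local background that the peak caller MACS2 estimated, in each replicate. With 2 replicates an SD measures only their difference.

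The markers of MB neurons had open chromatin where it would be looked for first. All 8 genes of that list (ey, toy, dac, rut, Dop1R2, prt, Fas2 and mamo) had a shared region over a gene end, as did all 4 general neuronal genes. Of 3 glial genes 2 had such a region, with repo as the exception, whereas none of 3 photoreceptor genes and none of 3 muscle genes had a shared region over an end or anywhere in the span. In the window, however, all 3 photoreceptor and all 3 muscle genes had a shared region, where 87.5% of protein-coding genes did. The highest of these, at ninaC, had a mean fold enrichment of 6.28 and lay outside the gene. Across all protein-coding genes, 56.2% had a shared region over a gene end.

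In the 8 windows, replicate 1 had 24 distinct peaks and replicate 2 had 23. Of the replicate 1 peaks 22 overlapped a peak of replicate 2, and each of the 23 in replicate 2 had a partner in replicate 1. Merged, they formed 22 shared regions, of which 3 lay in the windows of both Sox21a and Sox21b. All 8 Sox genes had at least 1 shared region in the window, where 87.5% of protein-coding genes did, and all 8 had a region that touched the span itself, where 61.3% of protein-coding genes did. At Sox21a that touch was a single base pair, and it came from the replicate 1 peak only. A region covered a gene end in 6 of the 8, the exceptions being D and Sox100B, against the 56.2% given above. With regions up to 500 bp from an end counted, D was included and the number was 7. The share of all protein-coding genes under that wider rule was not computed, so the 56.2% is no measure for it. The gene table gives no strand, so that which end is the transcription start was not determined here, and ends are named by their coordinate on release 6 of the genome.

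**Figure D1:**
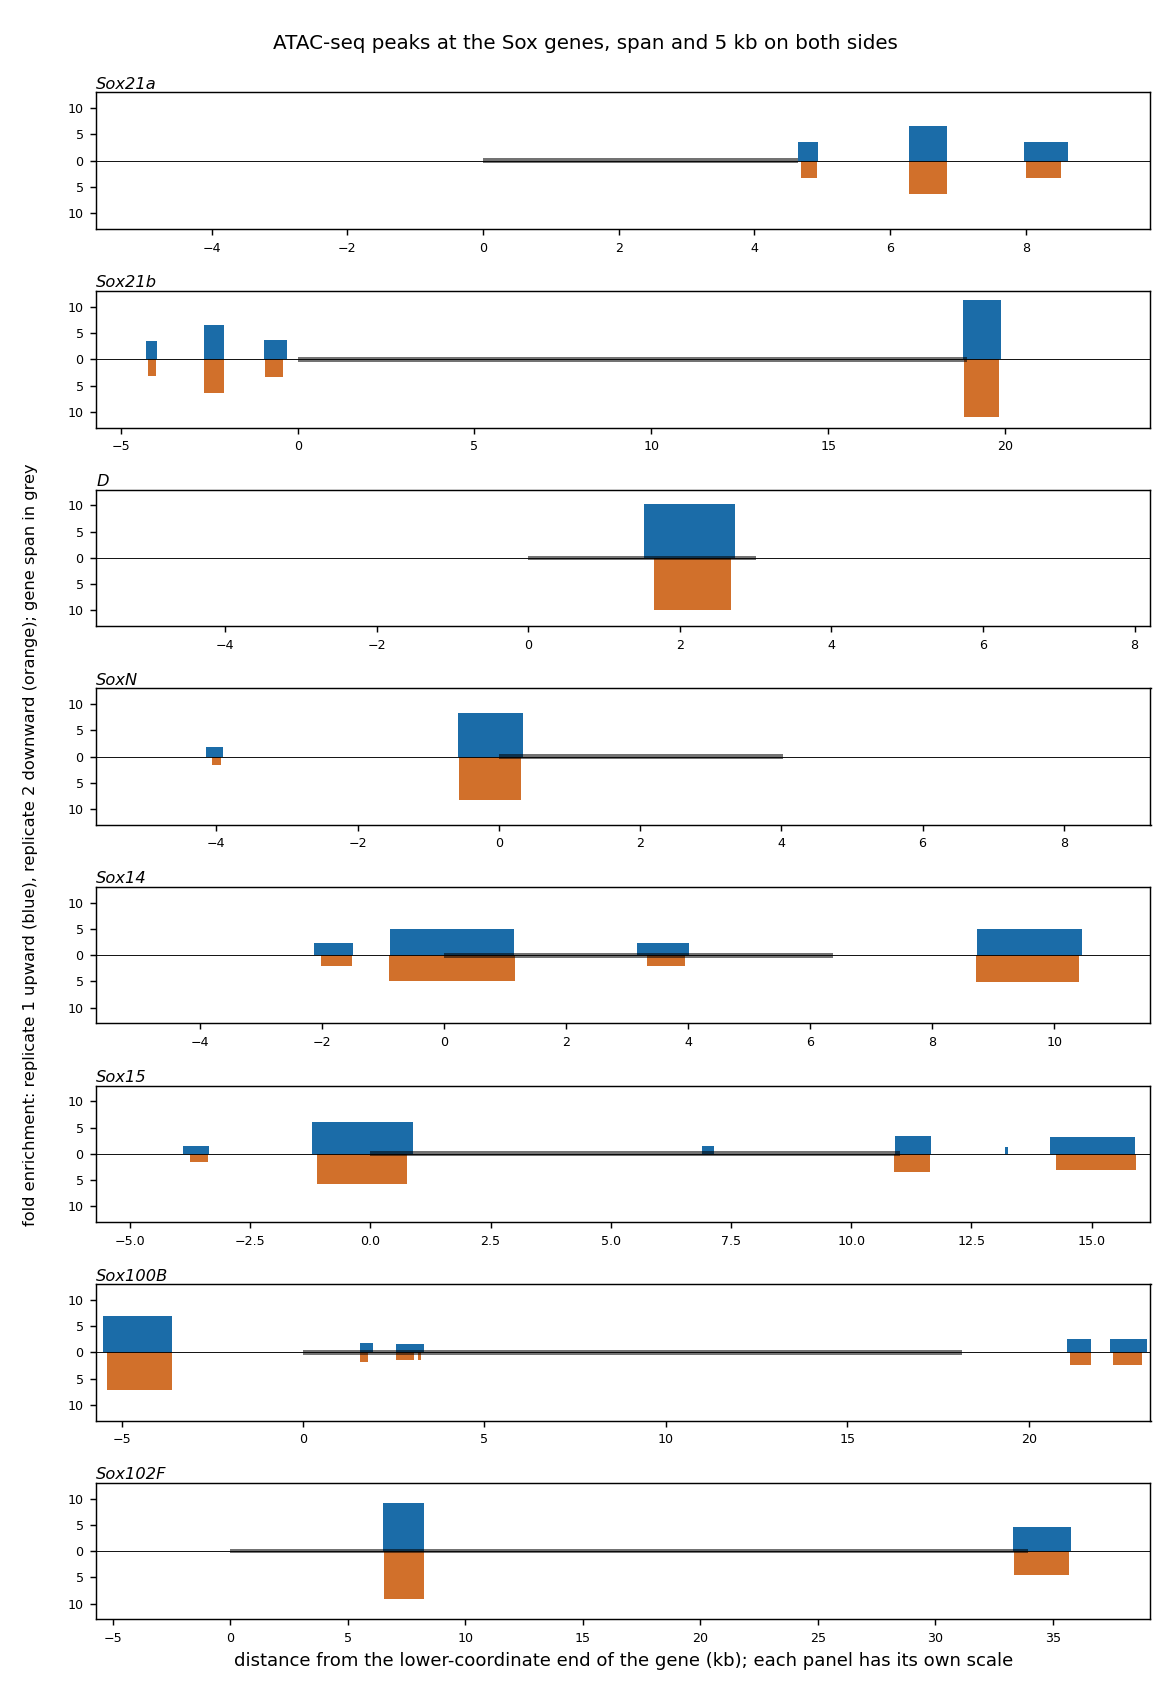
Peaks in the windows of the 8 Sox genes. The x axis gives the distance in kb from the lower-coordinate end of each gene, each block spans a peak, and its height is the fold enrichment at the summit, with replicate 1 upward, replicate 2 downward and the gene span in grey. Sox21b, D, SoxN and Sox102F each carry a block above 8 in both replicates, and 2 low peaks of replicate 1 at Sox15 have no partner in replicate 2.

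The folds of the 2 replicates lay close together. The ratio of replicate 1 to replicate 2 over the 22 regions ranged from 0.943 to 1.14 with a median of 1.03, the same median as over all 14656 shared regions (1.03). Replicate 1 was higher in 18 of the 22 regions, and in 66.9% of all shared regions. Summits lay a median of 12.5 bp apart at the Sox genes and 24 bp apart over all shared regions. In 4 of the 22 regions both summits fell on the same base pair, namely the strongest regions of Sox21b, SoxN and Sox15 and the middle region between Sox21a and Sox21b. The largest shift, 155 bp, was in a weak region inside Sox100B, where replicate 2 had 2 small peaks under a single peak of replicate 1.

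**Figure D2:**
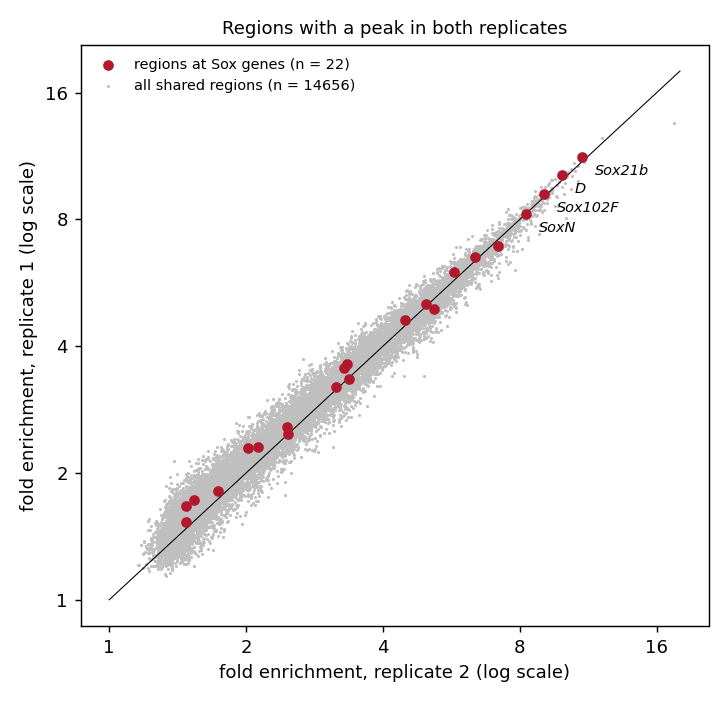
Fold enrichment of each shared region in replicate 1 (y axis) against replicate 2 (x axis), both on a log scale, for the 22 regions at the Sox genes (red) and all 14656 shared regions (grey), with the line of equal values. The regions at Sox21b, D, Sox102F and SoxN lie at the upper end of the cloud, near the line.

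The strongest region in each window set the family in order, whether or not it touched the gene. The mean of both replicates was 11.1 at Sox21b, 10.1 at D, 9.13 at Sox102F, 8.26 at SoxN, 7.03 at Sox100B, 6.44 at Sox21a, 5.87 at Sox15 and 5.04 at Sox14. The SD of the replicates was at most 0.208 for each, so that every neighbouring pair in this order differed by more than the replicates of either gene. The median over the 8 genes was 7.64, and over the 12177 protein-coding genes with a shared region in the window it was 4.45. All 8 Sox genes were above the median of these genes, and 4 were above their 95th percentile. For Sox100B, Sox21a and Sox14 the value came from a region outside the gene, and the highest region touching the span had a mean of 1.77 at Sox100B, 3.42 at Sox21a and 5.01 at Sox14. With regions that touch the span only, the median was 7.06 over the 8 Sox genes and 3.88 over 8528 protein-coding genes, and 6 of the 8 were above 3.88, all but Sox100B and Sox21a. Sox genes were longer, with a median span of 8700.5 bp against 2163 bp over protein-coding genes. A longer window can hold more regions, and the highest of more regions can be higher. They had a median of 3.5 shared regions in the window, against 2 over all protein-coding genes. The share of the window inside shared regions was lower, with a median of 9.92% at the Sox genes and 18.4% over all protein-coding genes. Genes of like length were not compared for the highest fold, the number of regions or this share.

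Sox21b (Dmel_CG32139), a group B gene, lies on 3L from 14112405 to 14131324. Its strongest region, from 14131229 to 14132300, covered the higher-coordinate end, with 96 bp of the region inside the gene. The peak of replicate 1 was 1072 bp wide and enriched 11.26-fold, and that of replicate 2 was 984 bp wide and enriched 10.98-fold. Both summits lay at 14131771, 447 bp outside the gene. Among all shared regions it ranked 3 by mean fold, 3 by replicate 1 and 4 by replicate 2. No protein-coding gene had a higher value in its window. The next in rank, tied at a mean of 11.03, were Antp, a Hox gene, and CG46458, which share a region on 3R from 6893102 to 6893952 that lies 2301 bp outside either span (10.96 in replicate 1 and 11.09 in replicate 2). Their difference from Sox21b was smaller than the SD of the Sox21b replicates (0.201), so that these ranks are not told apart. The rest of the 18920 bp span of Sox21b held no peak of either replicate.

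At the other end of Sox21b, 3 separate regions lay in or at the edge of the 4286 bp between it and Sox21a. Sox21a (Dmel_CG7345), on 3L from 14103481 to 14108118, is a group B gene known for the differentiation of progenitor cells in the adult gut. The middle region, from 14109753 to 14110323, was the strongest of the 3, with 6.52 in replicate 1 and 6.37 in replicate 2, and lay 1635 bp from Sox21a and 2082 bp from Sox21b. The one nearest to Sox21b, from 14111458 to 14112103, had 3.62 in replicate 1 and 3.33 in replicate 2 and ended 302 bp short of that gene. The one nearest to Sox21a, from 14108118 to 14108416, had 3.55 in replicate 1 and 3.28 in replicate 2. It covered the end of Sox21a by a single base pair, and only in replicate 1, since the replicate 2 peak began at 14108175. Beyond that base pair the span of Sox21a held no peak, and its lower-coordinate side had none within 5 kb.

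D (Dmel_CG5893), also named Dichaete and of group B, lies on the same arm from 14175610 to 14178620. It had a single peak in its window in each replicate. The fold enrichment was 10.2 with a width of 1201 bp in replicate 1, and 9.92 with 1024 bp in replicate 2. The shared region, from 14177134 to 14178334, lay wholly inside the gene and took up 39.9% of its span, with the summit at 14177934 in replicate 1 and at 14177953 in replicate 2, which is 667 bp from the higher-coordinate end. It ranked 16 among all shared regions by mean fold, 12 by replicate 1 and 20 by replicate 2. Its -log10 q was the highest of any Sox peak in either replicate, 2315 in replicate 1 and 1195 in replicate 2. Between Sox21b and D lie 44285 bp with 1 annotated gene, lncRNA:CR45887, and no shared region wholly in between. The stretch of 3L from 5 kb below Sox21a to 5 kb above D, 85140 bp with all 3 of these group B genes, thus held 5 shared regions.

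SoxN (Dmel_CG18024), the remaining group B gene and the SoxB1 member of the family, lies on 2L from 8825645 to 8829670 and is known for the formation of neural stem cells in the embryo. Its strongest region ran from 8825064 to 8825981 across the lower-coordinate end, and was enriched 8.26-fold in both replicates. Both summits lay at 8825451, 194 bp outside the gene, and the region ranked 127 among all shared regions. A second, weak region lay 3907 bp outside the gene, from 8821501 to 8821738, with 1.72 in replicate 1 and 1.54 in replicate 2. The higher-coordinate end and the remainder of the span held no peak.

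Sox102F (Dmel_CG11153), the SoxD member, spans 33958 bp of chromosome 4 from 800436 to 834393, the longest of the 8 genes. Its strongest region lay deep inside the gene, from 806948 to 808677, enriched 9.21-fold in replicate 1 and 9.05-fold in replicate 2, and ranked 52 among all shared regions. The summit was 7570 bp from the lower-coordinate end in replicate 1 and 7561 bp in replicate 2. The region over the higher-coordinate end, from 833761 to 836197, was lower, with 4.62 in replicate 1 and 4.47 in replicate 2, although it was the widest at any Sox gene (2437 bp).

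Sox14 (Dmel_CG3090), the SoxC member, lies on 2R from 23978801 to 23985177. Its own strongest region, from 23977900 to 23979963, covered the lower-coordinate end and was broad, with 5.04 over 2028 bp in replicate 1 and 4.97 over 2064 bp in replicate 2. The summits lay at 23978638 in replicate 1 and 23978644 in replicate 2, just outside the gene. A region inside the gene, from 23981961 to 23982811, had 2.30 in replicate 1 and 2.02 in replicate 2. The highest value of the window, 4.90 in replicate 1 and 5.19 in replicate 2, lay 2337 bp beyond the other end, from 23987514 to 23989247, over ends of Phm, an enzyme of neuropeptide amidation, and Pask, a kinase. The mean of this region, 5.04, and that of the region over the Sox14 end, 5.01, differed by less than the SD of its replicates (0.208). One more region, with 2.31 in replicate 1 and 2.13 in replicate 2, overlapped PPP1R15 and lay 1499 bp from Sox14. The share of the Sox14 window inside shared regions was 32.3%, the highest of the family.

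Sox15 (Dmel_CG8404), the SoxF member, lies on 2R from 14201390 to 14212413 and is known from the support cells of sense organs. Its strongest region, from 14200178 to 14202267, covered the lower-coordinate end and also an end of VGAT, the gene of the vesicular GABA transporter next to Sox15. The fold enrichment was 6.01 over 2090 bp in replicate 1 and 5.72 over 1871 bp in replicate 2, and both summits lay at 14201232, inside VGAT and 158 bp outside Sox15. The peak lists cannot divide such a region between both genes. The region at the other end, from 14212287 to 14213039, overlapped no other gene and had 3.34 in replicate 1 and 3.37 in replicate 2. A region 3103 bp away lay over RpS23, a ribosomal protein gene, and mir-308, with 3.20 in replicate 1 and 3.15 in replicate 2. Another, 3361 bp from the lower end and inside Sdb, had 1.53 in replicate 1 and 1.48 in replicate 2. The only peaks at any Sox gene without a partner were 2 weak peaks of replicate 1 here, the replicate with the higher -log10 q at all 22 shared regions, and the part of depth in this was not tested. The one inside the gene was 250 bp wide, with a fold enrichment of 1.49 and a -log10 q of 11.4, and the one beyond the higher-coordinate end was 62 bp wide, with 1.24 and 3.997.

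Sox100B (Dmel_CG15552), the SoxE member, is known from the development of the testis and lies on 3R from 31065253 to 31083407. Its highest region touching the span had a mean of 1.77, the lowest such value of the 8 genes. Sox21a, with 3.42 by that measure, had only 1 bp of its span in a region, against 1144 bp at Sox100B. The highest value of its window, 6.91 in replicate 1 and 7.15 in replicate 2, belonged to a region from 31059752 to 31061636 that covered an end of the neighbouring gene dco, a kinase gene of the circadian clock, and lay 3617 bp from Sox100B. Inside Sox100B, the region from 31066813 to 31067171 had 1.81 in replicate 1 and 1.73 in replicate 2, and the region from 31067803 to 31068587 had 1.67 in replicate 1 and 1.47 in replicate 2. Neither gene end was covered. Beyond the higher-coordinate end, 2 regions without an annotated gene had 2.57 and 2.46 (from 31086316 to 31086975) and 2.47 and 2.48 (from 31087485 to 31088512) in replicates 1 and 2.

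At the limit of the window, the farthest region counted lay 4078 bp from Sox100B, followed by 3989 bp (the region at the end of Sox21a, counted for Sox21b) and 3907 bp (SoxN). The nearest regions left out lay 5944 bp from Sox14, over mr with 1.75 in replicate 1 and 1.505 in replicate 2, and 7151 bp from Sox15, over CG8468 with 1.61 and 1.59.

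The strongest regions of Sox21b, D, SoxN and Sox102F stood far from other shared regions on at least 1 side. The gap from the Sox21b region to the next shared region was 19125 bp on the lower side and 44833 bp on the higher side, where the next region was that of D. For D the gaps were 44833 bp and 10854 bp, for Sox102F 18076 bp and 25083 bp, and for the SoxN region 3325 bp and 62717 bp. The larger gap lay at percentile 97.3 of all shared regions for Sox21b and D, at 98.7 for SoxN and at 90.8 for Sox102F. The strongest regions of the other genes were more closely spaced, with larger gaps of 1336 bp at Sox21a, 4952 bp at Sox14, 5181 bp at Sox100B and 10019 bp at Sox15. Over all 22 regions the median larger gap was 10019 bp, against 7066.5 bp over all shared regions, and the median nearest gap was 2148 bp, against 1945 bp. Fold enrichment is a ratio to a local background, and the part of that background in this spacing was not tested.

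**Figure D3:**
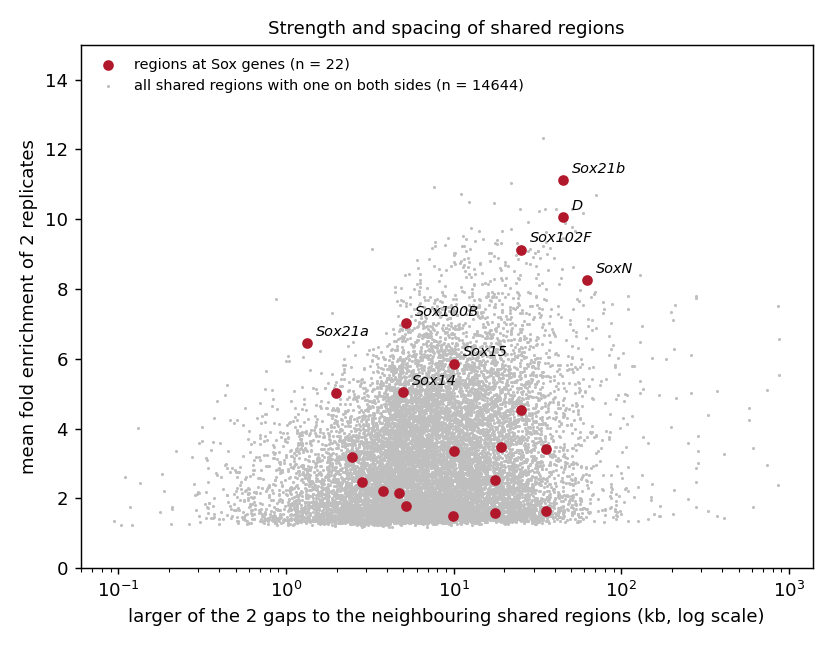
Mean fold enrichment of 2 replicates (y axis) against the larger of the gaps to the neighbouring shared regions on the same arm (x axis, kb, log scale), for the 22 regions at the Sox genes (red) and all 14644 shared regions with a neighbour on both sides (grey). Names mark the strongest region in the window of each gene, and Sox21b, D, SoxN and Sox102F lie at the upper right.

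Other genes were set beside the Sox family. Of 9 genes with an HMG box that are not Sox genes, all 9 had a shared region in the window, where 87.5% of protein-coding genes did. A region covered a gene end in 7 of the 9, against 56.2% of protein-coding genes. Their median highest fold was 3.90, with a range from 3.07 to 6.58, where the Sox genes had a median of 7.64. The highest was cic, a repressor, with 6.69 in replicate 1 and 6.46 in replicate 2. The lowest was Ssrp, a histone chaperone subunit, with 2.96 and 3.18. For pan, the TCF factor of Wingless signalling, the values were 4.75 and 4.72. In this list cic lay above Sox21a, Sox15 and Sox14, and HmgD, a chromatin protein gene whose strongest region (mean 5.78) lay outside the gene, was above Sox14. The strongest region also lay outside the gene for bbx, HmgZ, Bap111 and TFAM. By the share of the window inside shared regions the order was reversed, with a median of 23.2% in this list and 9.92% at the Sox genes.

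Of 11 genes known to act with or around the Sox genes, 9 had a shared region in the window and 5 had one over a gene end. Over all protein-coding genes these shares were 87.5% and 56.2%. The median highest fold of the list was 5.78. The POU-domain genes nub and vvl, of which vvl is a partner of D in the embryonic midline, had 10.4 and 9.78 in replicate 1 and 10.2 and 10.1 in replicate 2, close to D itself. The nub region lay inside the gene, like that of D, and the vvl region covered an end. The related gene pdm2 had 6.05 in replicate 1 and 6.74 in replicate 2, outside the gene. The homeodomain genes vnd and ind, which act beside SoxN and D in the neuroectoderm, had 6.65 and 4.20 in replicate 1 and 6.07 and 4.12 in replicate 2, and the ind region lay outside the gene. No shared region lay within 5 kb of the proneural genes ase and l(1)sc. Around Sox14, EcR, the ecdysone receptor upstream of it, had 23 shared regions. The highest lay inside the gene, with 5.78 in replicate 1 and 5.79 in replicate 2. The EcR partner usp had 4.64 and 4.51, and Mical, an actin-disassembling enzyme downstream of Sox14 in pruning neurons, had 4.39 and 4.22 over a gene end. Over a gene end the mean was 3.69 at EcR, 4.57 at usp and 4.30 at Mical, each below that at the Sox14 end (5.01).

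**Figure D4:**
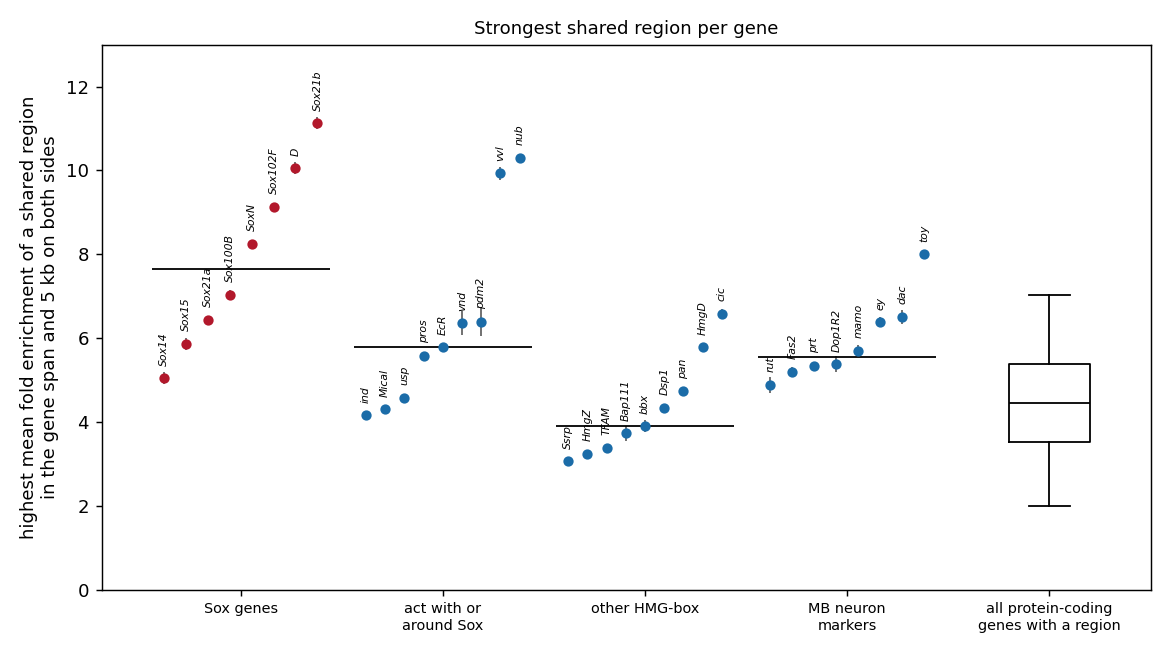
Highest mean fold enrichment of a shared region in the window of each gene (y axis), by list, with the replicate values as the ends of a vertical line and the list median as a horizontal line; ase and l(1)sc, without a region, are not drawn. The box gives the quartiles and median (4.45) of all 12177 protein-coding genes with a region, with whiskers at percentiles 5 and 95 (1.99 and 7.03). Sox21b, D, Sox102F and SoxN are above the upper whisker.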

How the data were processed

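ATAC-seq was performed by the authors on INTACT-isolated MB nuclei. Per the labels and methods, reads were trimmed with Trimmomatic (version 0.39) and aligned with Bowtie2 (version 2.4.1) to release 6 (dm6), shifted for the Tn5 cut, and cleared of multi-locus, mitochondrial, scaffold and duplicate reads. Peaks were called per replicate with MACS2 (version 2.1.2, q threshold 0.01). The deposited lists give each peak's fold enrichment, a ratio to local background that depends on that background, and its -log10 p, its -log10 q, which grows with depth, and a score derived from it. Scores and -log10 p were not used.

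Overlapping peaks (at least 1 bp) were merged, and regions with a peak of each replicate were kept as shared. For each region the highest peak of each replicate was taken. Gene spans came from the RefSeq table of the same release (17684 of 17872 genes on 6 arms), without strand or sequence, so that either end replaced the planned start and motifs were not searched. Named genes were the 8 members, fixed lists, neighbours overlapped by a member's strongest region, and the 2 genes ranked just below Sox21b (none ranked above it); other neighbours were named after their values were seen. The members and lists were chosen with earlier results of these data known. The gaps between regions were added after the data were seen. Code was tested on simulated data. Python (version 3.11.15), numpy (version 2.4.6) and pandas (version 2.3.3) were used.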

Additional observations from a re-analysis of the deposited data

How the results depend on the processing

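Leaving out 1 of 2 replicates moves their mean by less than their SD by construction, so that 6 such values tell nothing of stability; they ranged from 10.98 to 11.26 for Sox21b and from 7.59 to 7.70 for the median highest fold enrichment. Among the 50 other values recomputed under another setting, 37 stayed within the replicate SD or, for counts, within 1.5 times, and 13 did not. Some of the 37 could not have moved. The Sox21b region touches the span, so that a narrower window keeps it. The strongest region of each gene has a -log10 q far above 10, so that those limits keep the highest folds. Most of those 13 came from the window. With the gene span alone, replicate 1 had 13 peaks, replicate 2 had 12 and 12 regions were shared, and with 1 kb on both sides these were 14, 14 and 13. The median highest fold enrichment was then 7.06 in both cases, since the dco region left the Sox100B window and the middle region the Sox21a window. The median share of the window inside shared regions was 7.66% for the span alone, 12.3% with 1 kb and 7.19% with 10 kb. With either replicate alone that share was 9.06% to 9.89%. The median percentile of the strongest region among all peaks was 98.5 by fold enrichment and 99.3 by -log10 q. A -log10 q of at least 5 or 10 and a reciprocal overlap of 50% moved no result by these measures. At a -log10 q of at least 10, replicate 2 nonetheless had 19 peaks in place of 23, and 19 regions were shared in place of 22. The end of Sox21a counted as covered only through replicate 1, and without that replicate 5 genes had a covered end. The replicates differ in depth, and with no reads per peak in the lists, its effect on which weak peaks were called was not tested.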

Other observations

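The surroundings of the strongest regions differed in how many genes they hold. Within 20 kb of the SoxN region no other annotated gene had an end, and within 20 kb of the strongest regions of Sox21b, Sox21a and Sox102F 1 gene outside the Sox family did. For D the number was 2. The strongest regions in the windows of Sox15, Sox100B and Sox14 lay in denser surroundings, with 6, 7 and 12 such genes. Each of these regions itself covered an end of another gene: VGAT at Sox15, dco at Sox100B, and Phm and Pask at Sox14. Part of each of these counts was therefore fixed by the region itself. The regions at Sox21b, D, SoxN and Sox102F, with a mean fold enrichment from 8.26 to 11.1, thus lay among fewer annotated genes than those of Sox14, Sox15 and Sox100B, with 5.04 to 7.03, while that of Sox21a (6.44) also lay among few. This grouping was made after the values were seen. Whether it holds beyond these 8 genes was not tested, nor was the part of the local background that enters each fold enrichment.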
